A study of Mus musculus with 6 samples.

Results

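The genes described here build the contractile apparatus of myoepithelial cells and smooth muscle, with a receptor and an adhesion molecule of the same cells. The 9 genes (Acta2, Actg2, Myh11, Cnn1, Tagln, Myl9, Mylk, Oxtr and Cdh3) were chosen by symbol from the 19505 named genes of the array. Each was read from the brightest of its probe sets, and each had only 1. They were measured in submandibular glands, a pair of major salivary glands, of 6 female NOD mice aged 10 weeks. There were 3 mice with the label NOD.B6-Myd88-/- and 3 labelled NOD.B6-Myd88+/+, with 1 array a mouse and no technical repeats. NOD mice develop autoimmune infiltrates in their salivary glands, and Myd88 is the adaptor of most Toll-like receptors and of the interleukin-1 receptor family. The comparison asks what the loss of Myd88 does to the gland's transcripts in this strain. All animals share the NOD background, and the NOD.B6 labels do not say how much of another strain's genome lies around the targeted gene. Cnn1 and Tagln lie on chromosome 9, as Myd88 does.

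Myoepithelial cells are epithelial cells that wrap the acini and the first ducts of the gland and squeeze saliva out when they contract. They carry basal keratins together with the actin and myosin of smooth muscle, which arteries and veins of the gland also express. In both cell types, calcium activates myosin light chain kinase (Mylk), which phosphorylates the regulatory light chain (Myl9). The myosin heavy chain (Myh11) then pulls on actin filaments, which are built from Acta2 and Actg2. Calponin (Cnn1) and transgelin (Tagln) bind those filaments. In whole-gland RNA, fewer such cells and less RNA per cell cannot be told apart, nor can myoepithelial and vascular sources.

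Many smooth muscle genes are controlled by serum response factor, which binds the CArG box, a short stretch of A and T between a C pair and a G pair. The promoters of Acta2, Myl9 and Cnn1 are shown because these 3 had the most negative differences among the genes described. They are RefSeq sequences of build GRCm38.p6, matched by gene identifier for 5 of the 9 genes (Acta2, Cnn1, Myl9, Mylk and Oxtr). Each runs 5′ to 3′ along the gene's strand, from 250 bases before the annotated start to 50 bases into the gene. Capitals mark CArG boxes, in the consensus or with 1 of the central letters replaced by C or G.
Acta2 (chr19:34255324-34255623, minus strand): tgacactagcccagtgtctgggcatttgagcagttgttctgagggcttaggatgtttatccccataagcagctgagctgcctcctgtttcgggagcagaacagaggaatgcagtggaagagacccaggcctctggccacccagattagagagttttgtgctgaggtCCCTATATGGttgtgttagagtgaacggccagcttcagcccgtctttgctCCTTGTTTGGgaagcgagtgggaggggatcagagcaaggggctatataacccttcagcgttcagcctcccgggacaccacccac
Myl9 (chr2:156775214-156775513, plus strand): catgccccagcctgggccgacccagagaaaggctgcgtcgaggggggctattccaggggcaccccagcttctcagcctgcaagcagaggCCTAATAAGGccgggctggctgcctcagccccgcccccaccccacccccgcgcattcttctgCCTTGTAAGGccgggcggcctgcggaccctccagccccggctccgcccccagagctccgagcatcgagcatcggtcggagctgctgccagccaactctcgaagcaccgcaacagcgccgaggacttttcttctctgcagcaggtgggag
Cnn1 (chr9:22099003-22099302, plus strand): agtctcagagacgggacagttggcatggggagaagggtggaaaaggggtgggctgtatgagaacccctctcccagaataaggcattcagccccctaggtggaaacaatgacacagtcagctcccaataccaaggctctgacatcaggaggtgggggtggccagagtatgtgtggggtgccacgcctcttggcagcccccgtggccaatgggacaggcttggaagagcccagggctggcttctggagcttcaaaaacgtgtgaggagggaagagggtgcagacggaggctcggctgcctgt

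The Myl9 promoter held a consensus CArG box, CCTAATAAGG, from 161 bases before the start, and CCTTGTAAGG, which departs from it by 1 letter, from 99 bases before the start. The Acta2 promoter held CCCTATATGG and CCTTGTTTGG from 84 and 34 bases before the start, both departing from the consensus by 1 letter. No such letters stood in the windows of Cnn1, Mylk and Oxtr. The consensus box was found in 1.63% of the 32851 mouse promoter windows of the same length, and the box with up to 1 letter replaced in 9.98%. The motif reads alike on both strands, so 1 search covers both.

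The deposited values are on the log2 scale of the robust multi-array average (RMA), so a difference of 1 is a 2-fold difference in signal. RMA pulls small differences together near background, and the 23 background control probe sets had a median of 5.55. Array medians lay between 6.0 and 6.1. Reading above 5.55 is a weak check of the labelled tissue, as 9418 of all 22206 tested probe sets had a mean under it. Of the 10 measured gland markers, 9 read above 5.55 in all 6 glands, among them the acinar water channel Aqp5 at 13.74 to 14.32. Only the duct keratin Krt19, at 5.11 to 5.59, did not. All 6 myoepithelial markers (Acta2, Cnn1, Oxtr, the basal keratins Krt5 and Krt14 and the basal transcription factor Trp63) did so too. Of 6 vascular smooth muscle markers, the intermediate filament gene Des stayed below it, at 3.62 to 4.48. Of the 4 skeletal muscle markers only Ckm read above it in all glands. Myd88, with 1 probe set, read 7.33, 6.80 and 7.47 in Myd88-/- glands and 7.81, 7.86 and 7.53 in Myd88+/+ glands. The groups did not overlap, but limma's adjusted p was 0.46, and the sources used here do not say whether this probe set falls inside the deletion.

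Contractile genes read lower on average in Myd88-/- glands than in Myd88+/+ glands, and none of the differences passed the test. Of the 9 genes, 8 had a lower Myd88-/- mean, against 47.5% of all 22206 tested probe sets, and only Oxtr had a higher one. Their median log2 difference was −0.45, and that of all tested probe sets was 0.02. At an adjusted p under 0.05, limma called 0 of the 9 genes, as it called 0% of all probe sets. At an unadjusted p under 0.05 it counted 3 of the 9 as lower (Acta2, Myl9 and Cdh3), against 5.55% of all probe sets, and 0 as higher, against 4.5%. The share lower was larger among probe sets as bright as Acta2, Myh11, Cnn1, Tagln, Myl9 and Mylk, at 396 of 4032. The groups failed to overlap for 1 of the 9 genes, Cdh3, which was lower. Of all probe sets, 7.25% were lower with no overlap, so 1 of 9 is near the background. Without Myd88+/+ replicate 3 the count with a lower mean was 6, the count at an unadjusted p under 0.05 was 0 (background 4.92%) and the median difference was −0.25. That unadjusted count was also 0 without Myd88-/- replicate 1 (background 3.99%).

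**Figure D1:**
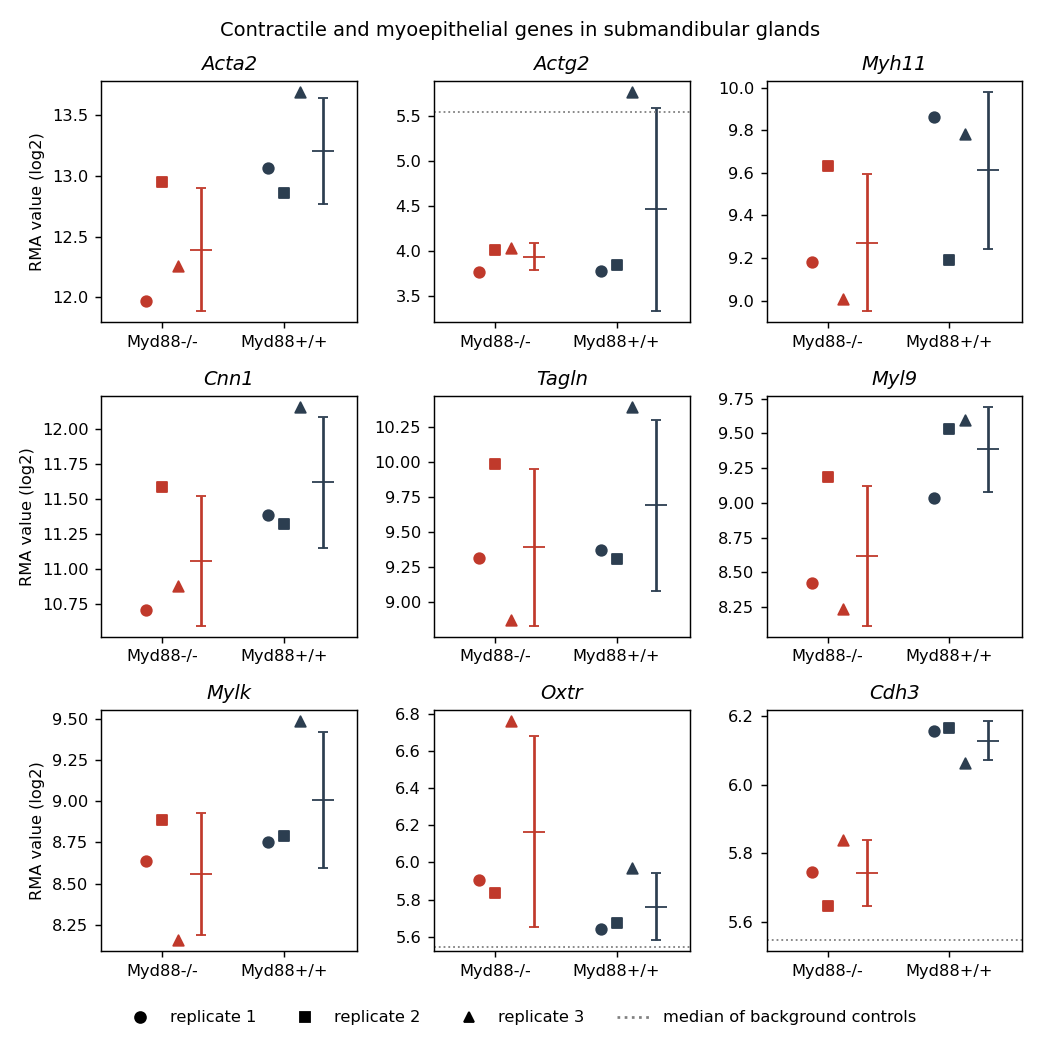
RMA values (log2) of the 9 genes in each gland, Myd88-/- glands in red and Myd88+/+ glands in dark blue, with the group mean and SD (n = 3 each) beside the points. Vertical axes differ between genes and do not start at 0. Cdh3 alone has groups that do not overlap, and Myd88-/- replicate 2 (square) lies above the other red points in the 6 brighter contractile genes.

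Of the filament actins, Acta2, the alpha actin of smooth muscle and the usual marker of myoepithelium, read 11.96, 12.95 and 12.26 in Myd88-/- glands and 13.06, 12.86 and 13.69 in Myd88+/+ glands. Both Myd88-/- replicates 1 and 3 lay below every Myd88+/+ gland, while replicate 2 lay within the Myd88+/+ range. The difference was −0.81 with a standard error (SE) of 0.30, a 1.76-fold lower level (95% interval −1.48 to −0.15, limma adjusted p = 0.44). Leaving out 1 mouse at a time gave −1.09 without Myd88-/- replicate 2 and −0.57 without Myd88+/+ replicate 3. Actg2, the gamma actin of enteric smooth muscle, read 3.77, 4.01 and 4.04 in Myd88-/- glands and 3.78, 3.85 and 5.77 in Myd88+/+ glands. Every value but that of Myd88+/+ replicate 3 lay under the background control median, and that gland alone set the difference of −0.53 (SE 0.46, limma adjusted p = 0.727), which was 0.13 without it. Actins are close to identical in sequence and can share probes, so the separate values of Acta2, Actg2 and the other actins are uncertain.

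The motor and its switch had lower Myd88-/- means with overlapping groups. Myh11, the heavy chain of smooth muscle myosin, read 9.18, 9.63 and 9.01 in Myd88-/- glands and 9.86, 9.19 and 9.78 in Myd88+/+ glands. The groups overlapped through Myd88-/- replicate 2 and Myd88+/+ replicate 2, and the difference was −0.34 (SE 0.24, 95% interval −0.88 to 0.20). Leaving out Myd88-/- replicate 3 or Myd88+/+ replicate 1 brought it to −0.21, and quantile normalization to −0.20. Leaving out replicate 2 of Myd88-/- or of Myd88+/+ brought it to −0.52 or −0.55. Myl9, the regulatory light chain whose promoter carries the consensus CArG box, read 8.43, 9.19 and 8.24 in Myd88-/- glands and 9.04, 9.53 and 9.59 in Myd88+/+ glands. Only Myd88-/- replicate 2 reached the Myd88+/+ range. Its difference of −0.77 (SE 0.27, 95% interval −1.38 to −0.16, limma adjusted p = 0.431) is a 1.71-fold lower level. Mylk, the kinase that switches this light chain on, read 8.64, 8.88 and 8.16 in Myd88-/- glands and 8.75, 8.79 and 9.49 in Myd88+/+ glands. Here the highest Myd88-/- gland lay above the lower 2 Myd88+/+ glands, and the difference was −0.45 (SE 0.26, 95% interval −1.04 to 0.13), or −0.21 without Myd88+/+ replicate 3.

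The filament-binding proteins also had lower Myd88-/- means with overlapping groups. Calponin (Cnn1) read 10.71, 11.59 and 10.88 in Myd88-/- glands and 11.38, 11.32 and 12.16 in Myd88+/+ glands. Replicates 1 and 3 of Myd88-/- were again below all Myd88+/+ glands and replicate 2 was above 2 of them, with a difference of −0.56 (SE 0.29, 95% interval −1.22 to 0.10, limma adjusted p = 0.56). Without Myd88-/- replicate 2 the difference was −0.82, and without Myd88+/+ replicate 3 it was −0.29. Transgelin (Tagln) read 9.32, 9.98 and 8.87 in Myd88-/- glands and 9.37, 9.30 and 10.39 in Myd88+/+ glands. The groups were interleaved, and the difference of −0.30 (SE 0.35, limma adjusted p = 0.807) was 0.055 without Myd88+/+ replicate 3. Leaving out Myd88-/- replicate 3 gave −0.04, and leaving out Myd88-/- replicate 2 gave −0.59. With quantile normalization it was −0.16 and with cyclic loess −0.19.

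Oxtr and Cdh3, the receptor and the adhesion molecule, did not follow the order of the filament genes. Oxtr encodes the oxytocin receptor, through which oxytocin contracts the myoepithelium of the mammary gland. It read 5.91, 5.83 and 6.76 in Myd88-/- glands and 5.64, 5.68 and 5.97 in Myd88+/+ glands. Myd88-/- replicate 3, the lowest gland for Myh11, Tagln, Myl9 and Mylk, was the highest for Oxtr, and without it the difference of 0.40 (SE 0.26, limma adjusted p = 0.636) was 0.11. Cdh3, P-cadherin of basal and myoepithelial cells, read 5.74, 5.64 and 5.84 in Myd88-/- glands and 6.16, 6.17 and 6.06 in Myd88+/+ glands. All 3 Myd88-/- glands lay below the lowest Myd88+/+ gland, and the difference between the group means was −0.39 (SE 0.16, 95% interval −0.74 to −0.03). A two-sided exact permutation test gave p = 0.1, which is as low as groups of 3 can reach, and the adjusted p from limma was 0.468. Both genes read within about 1 log2 unit of the background control median in most glands, where RMA compresses differences.

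**Figure D2:**
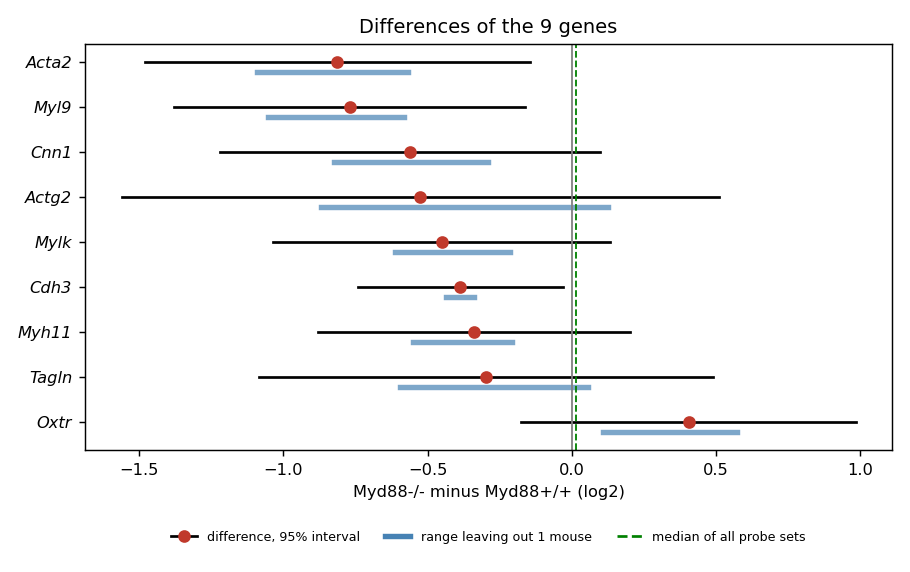
Myd88-/- minus Myd88+/+ difference (log2) of the 9 genes with limma's 95% interval (black) and the range over leaving out each mouse in turn (blue). The intervals of Acta2, Myl9 and Cdh3 lie below 0, and the blue ranges of Actg2 and Tagln cross it.

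The spread within each genotype was patterned by gland. In the 6 contractile genes that read above background in every gland (Acta2, Myh11, Cnn1, Tagln, Myl9 and Mylk), Myd88-/- replicate 2 was the highest Myd88-/- gland in 6 of 6. Myd88+/+ replicate 3 was the highest of all glands in 5 of 6, the exception being Myh11. Most of their non-muscle relatives, given below, shared the high Myd88-/- replicate 2, and the share of all probe sets doing so was not counted. Averaged over these 6 genes after subtracting each gene's mean, Myd88-/- glands stood at −0.45, 0.22 and −0.58 and Myd88+/+ glands at 0.09, 0.01 and 0.70. Myd88-/- replicate 2 thus stood above Myd88+/+ replicates 1 and 2. Replicate 2 exceeded the mean of the other Myd88-/- glands by 0.73, which is more than the difference of −0.54 between the genotype means is in size. Without it, 6 of the 9 genes (Acta2, Myh11, Cnn1, Myl9, Mylk and Cdh3) were lower with no overlap, against 15.5% of all probe sets, and 0 of the 9 were called (smallest limma adjusted p = 0.196). Replicate 2 was singled out for its high values in the contractile genes, so leaving it out favours no overlap in them. The 15.5% is therefore not a like comparison. Leaving out any other mouse gave 1 to 3 of the 9 genes without overlap in either direction. In those settings 23.3% to 25.3% of all probe sets had no overlap.

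Of 3 measures of the arrays, the width of the signal range moved in part with this order and the array median in part against it. The width of the signal range, taken as the 90th minus the 10th percentile of all tested probe sets, was 6.95, 7.13 and 6.83 log2 units in Myd88-/- glands and 7.30, 7.10 and 7.20 in Myd88+/+ glands. Myd88-/- replicates 1 and 3, the low glands for the contractile genes, had the narrowest ranges, and the part of this width in the differences was not tested. The background control medians of single arrays did not follow it, at 5.57 to 5.71 in Myd88-/- glands and 5.46 to 5.52 in Myd88+/+ glands, higher in each Myd88-/- gland and highest in replicate 2. Nor did the array medians, which were lowest in Myd88-/- replicate 2 and Myd88+/+ replicate 1 and highest in Myd88-/- replicate 3. Of the 4032 probe sets whose mean lay between those of the dimmest and the brightest of the 6 genes, 66.2% were lower in Myd88-/- glands, with a median difference of −0.10. At an unadjusted p under 0.05, 396 of them were lower and 55 higher, and 521 were lower with no overlap. The median of the 6 genes was −0.51.

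**Figure D3:**
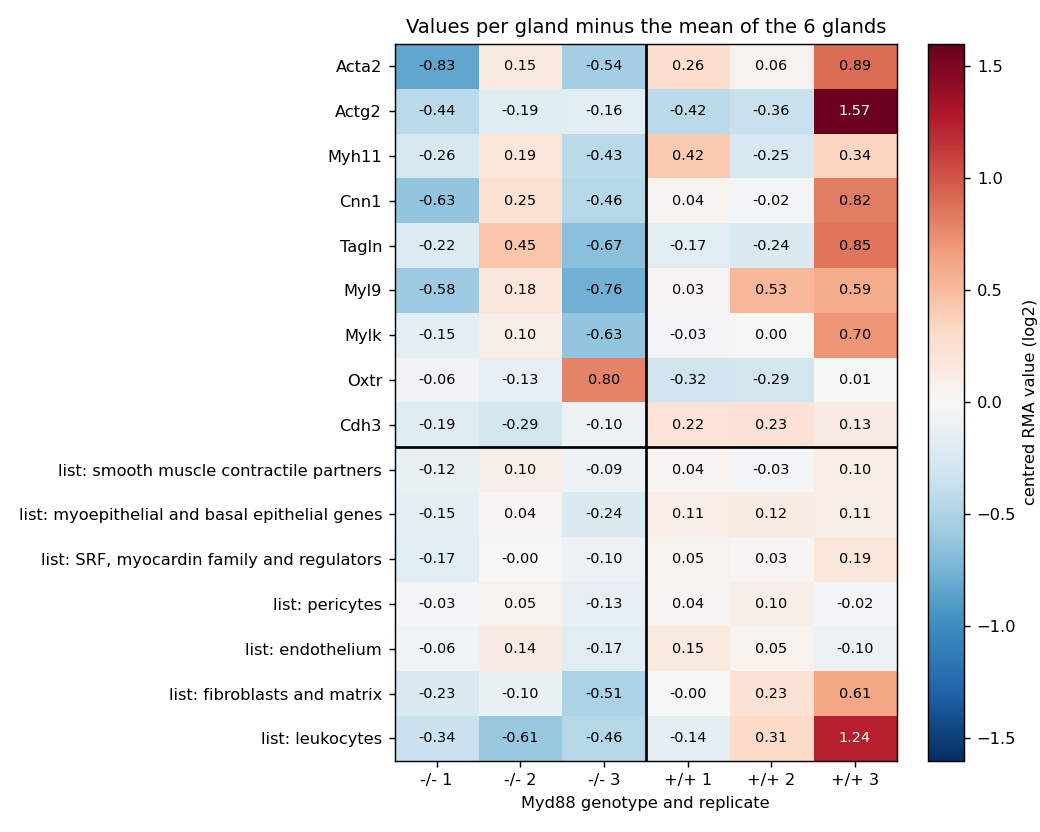
Values (log2) in each gland minus the mean over the 6 glands, for the 9 genes (upper block) and averaged over other gene lists without these genes (lower block), Myd88-/- glands left of the line. Rows from Acta2 to Mylk other than Actg2 are positive in Myd88-/- replicate 2 and negative in Myd88-/- replicates 1 and 3, and Myd88+/+ replicate 3 is high in these rows and in the leukocyte and fibroblast rows.

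Other genes of the contractile apparatus, set beside the 9 as a list, had a median difference near 0. Of 44 measured partners of smooth muscle contraction, limma called 0 at an adjusted p under 0.05, and at an unadjusted p under 0.05 it counted 4 lower and 0 higher (5.55% and 4.5% of all probe sets). Among probe sets at the level of the 6 contractile genes, 396 of 4032 were lower at that threshold. In all, 22 were lower and 22 higher, with a median of 0.00. The 4 were Flna, which crosslinks actin, with −0.98 (SE 0.39), the adhesion protein Tns1 with −0.66 (SE 0.24), the actin-binding Nexn with −0.54 (SE 0.19) and the heat-shock protein gene Hspb1 with −0.51 (SE 0.19). Limma's adjusted p of these 4 lay between 0.431 and 0.459. Flna was at −0.60 without Myd88+/+ replicate 3 and Tns1 at −0.39 without Myd88-/- replicate 3. Caldesmon (Cald1) and the tropomyosins Tpm1 and Tpm2, which bind actin filaments and were picked out after their values were seen, had differences of 0.02, −0.01 and 0.11. Their 95% intervals ran from −0.42 to 0.46, from −0.42 to 0.41 and from −0.59 to 0.80. The tropomyosin Tpm4 had 0.22 (95% interval −0.16 to 0.59). Its groups did not overlap, as for 1740 of all 22206 probe sets in the higher direction. Lmod1, a smooth muscle marker that nucleates actin, had −0.17 (95% interval −0.58 to 0.25).

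Basal and myoepithelial genes outside the contractile set had a median difference of −0.18. Of 43 measured, 34 were lower and 9 higher, against 47.5% lower among all probe sets and 66.2% among those at the level of the 6 contractile genes. Limma called 0, and at an unadjusted p under 0.05 there were 4 lower and 1 higher, against 5.55% and 4.5% of all probe sets. At the level of the 6 contractile genes these counts were 396 and 55 of 4032 probe sets. Trp63, which maintains basal epithelium, read 9.14, 9.50 and 9.49 in Myd88-/- glands and 10.54, 10.66 and 10.49 in Myd88+/+ glands, a difference of −1.18 (SE 0.17, limma adjusted p = 0.309). For Trp63 all 3 Myd88-/- glands, replicate 2 included, lay below the lowest Myd88+/+ gland. Igfbp5, which binds insulin-like growth factors, read 9.69, 11.11 and 9.54 in Myd88-/- glands and 11.79, 11.99 and 11.86 in Myd88+/+ glands. Its difference was −1.77 (SE 0.37, limma adjusted p = 0.321), with Myd88-/- replicate 2 again nearest to the Myd88+/+ glands. Without that gland it was −2.27 and passed (limma adjusted p = 0.0267, against up to 0.675 under other settings). Sparc, a matrix protein also made by fibroblasts, had −1.19 (SE 0.44), or −0.69 without Myd88-/- replicate 3, and Nrg1, an epidermal growth factor family ligand, had 0.48 (SE 0.19). The keratins Krt14 and Krt5 had −0.62 (95% interval −1.27 to 0.04) and −0.08 (95% interval −0.75 to 0.58), or −0.95 and −0.43 without Myd88-/- replicate 2.

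Of 31 measured regulators of the smooth muscle programme, 21 were lower and 10 higher, with a median of −0.16, where 47.5% of all probe sets and 66.2% of those at the level of the 6 contractile genes were lower. Limma called 0, and at an unadjusted p under 0.05 there were 4 lower and 0 higher, against 5.55% and 4.5% of all probe sets. At the level of the 6 contractile genes these counts were 396 and 55 of 4032 probe sets. The 4 regulators were the guanine nucleotide exchange factor Arhgef1 with −0.94 (SE 0.26), the transcription factor Mef2c with −0.62 (SE 0.20), the ligand Tgfb1 with −0.55 (SE 0.23) and its signal transducer Smad3 with −0.40 (SE 0.17). Tgfb1 was at −0.36 without Myd88-/- replicate 1. Srf, the gene of serum response factor itself, was picked out after its values were seen. It averaged 6.62 ± 0.33 in Myd88-/- glands and 7.16 ± 0.36 in Myd88+/+ glands (SD, n = 3 each), and Myd88-/- replicate 2 lay inside the Myd88+/+ range. Its cofactor Myocd stayed under the background control median in every gland.

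Receptors and ligands that drive contraction were mostly near background, as 20 of 27 had a mean under 5.55. Limma called 0 of them, 11 were lower and 16 higher, and the median difference was 0.03. Adra1b, an alpha-1 adrenergic receptor, had 0.48 (SE 0.18) and was the only one at an unadjusted p under 0.05 (background 4.5% higher). Ptger3, a prostaglandin E receptor, had 0.23, the endothelin receptor Ednrb −0.40 and the endothelin Edn3 0.24. Without Myd88-/- replicate 3, Ednrb was at −0.18 and Edn3 at 0.10. Of the vasopressin receptors, which are relatives of Oxtr, Avpr1a, Avpr1b and Avpr2 had 0.04, 0.19 and 0.34.

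Several relatives that non-muscle cells use in place of the filament genes also read lower in Myd88-/- glands. Actb, the cytoplasmic actin, read 16.23, 16.64 and 16.06 in Myd88-/- glands and 16.81, 17.17 and 17.18 in Myd88+/+ glands. The groups did not overlap, and its difference was −0.74 (SE 0.21, limma adjusted p = 0.379) beside −0.81 for Acta2. Myl12a and Myl12b, the non-muscle regulatory light chains, had −0.66 and −0.70 beside −0.77 for Myl9. The non-muscle myosin heavy chains Myh9, Myh10 and Myh14 had −0.52, −0.41 and −0.09, beside −0.34 for Myh11. Cnn2, the calponin of many cell types, had −0.54 and Cnn3 −0.07 beside −0.56 for Cnn1, and Tagln2 had −0.43 and Tagln3 0.15 beside −0.30 for Tagln. Several of these moved with 1 mouse. Without Myd88-/- replicate 3, Myh9 was at −0.26, Tagln2 at −0.22, Myh14 at 0.17 and Cnn3 at 0.16. Myh10 was at −0.17 without Myd88+/+ replicate 1 and Cnn2 at −0.31 without Myd88+/+ replicate 3. Whether a muscle gene differed more than its relative was not tested. Myd88-/- replicate 2 was the highest Myd88-/- gland for all relatives named so far but Tagln3, as for the 6 brighter contractile genes. Among striated forms, the cardiac and skeletal actins Actc1 and Acta1 had 0.07 and 0.17, and the atrial light chain Myl7 had −0.06. The skeletal and cardiac kinases Mylk2 and Mylk3 had −0.46 and −0.16 beside −0.45 for Mylk. Mylk2 did not overlap between the groups (limma adjusted p = 0.484), and read under the background control median in 5 of 6 glands, whereas Acta1, Myl7 and Mylk3 did so in all 6. Among cadherins, E-cadherin (Cdh1) had −0.31 and Cdh5 −0.27, while N-cadherin (Cdh2) had 0.65, Cdh11 0.51 and Cdh13 0.02, and none passed limma's test.

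**Figure D4:**
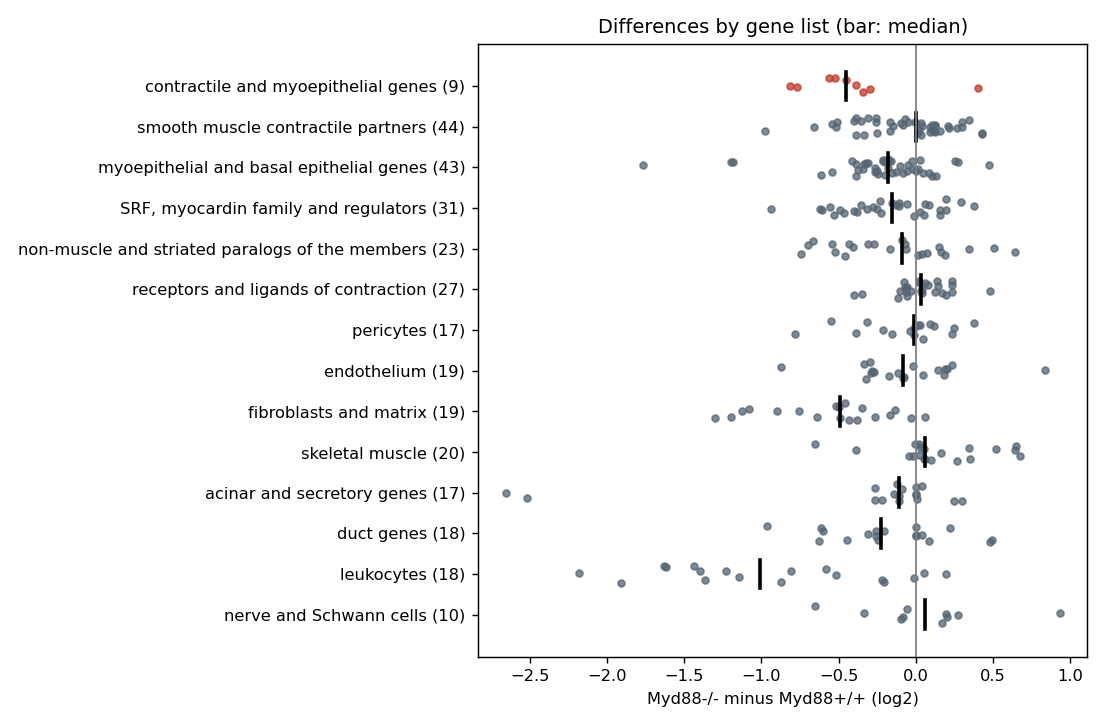
Myd88-/- minus Myd88+/+ differences (log2) of single genes by list, each point 1 gene and the bar the list's median, with the number of genes in brackets. The contractile and myoepithelial genes have a median of −0.45, the smooth muscle partners 0.00, the fibroblast genes −0.49 and the leukocyte genes −1.01, which is −0.59 without Myd88+/+ replicate 3.

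Markers of other cells in the gland were read beside the contractile genes. Vessel-associated lists had medians near 0, with −0.01 for 17 pericyte genes (9 lower) and −0.08 for 19 endothelial genes (12 lower), and their average levels overlapped between genotypes. Of these, 8 pericyte and 6 endothelial genes had a mean under the background control median. Without the dimmest 50% of probe sets the medians were −0.04 and −0.22. The markers Rgs5, Pdgfrb and Cspg4 averaged a difference of −0.23 and Pecam1, Cdh5 and Kdr one of −0.24, both with overlapping groups. The endothelial median was −0.29 without Myd88-/- replicate 2, and the pericyte median 0.12 without Myd88+/+ replicate 2. Averaged levels of the endothelial genes stood at −0.06, 0.14 and −0.17 in Myd88-/- glands and 0.15, 0.05 and −0.10 in Myd88+/+ glands, around the mean of all 6. Fibroblast and matrix genes were lower in 18 of 19 with a median of −0.49, from −0.51 to −0.10 in Myd88-/- glands and from 0.00 to 0.61 in Myd88+/+ glands. Of 18 leukocyte genes, 16 were lower with a median of −1.01, or −0.59 without Myd88+/+ replicate 3, from −0.61 to −0.34 in Myd88-/- glands and from −0.14 to 1.24 in Myd88+/+ glands. Myd88+/+ replicate 3, the highest gland for most contractile genes, was the highest in both lists, whereas Myd88-/- replicate 2 was the lowest for leukocyte genes. Skeletal muscle genes, of which 16 of 20 had a mean under the background control median, had a median of 0.06. Acinar, duct and nerve lists had medians of −0.11 (17 genes), −0.22 (18 genes) and 0.06 (10 genes). Of the nerve genes, 7 had a mean under the background control median. Limma called 0 genes of these 8 lists at an adjusted p under 0.05. At an unadjusted p under 0.05 it counted 11 fibroblast and 9 leukocyte genes as lower and 0 as higher, and in each of the other lists at most 4 in a direction, against 5.55% lower and 4.5% higher among all probe sets. The part of these other cells in the contractile differences was not tested.

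In each of these lists the 2 genes with the smallest p were looked at singly, and limma's adjusted p of these 16 lay between 0.321 and 0.678. The complement gene C1qb and the integrin Itgam, of macrophages and other myeloid cells, had −1.63 and −1.36. The matrix genes Col1a2 and Fbln1 had −1.12 and −0.90. For these 4 genes all Myd88-/- glands lay below all Myd88+/+ glands, as for 7.25% of all probe sets. Their choice by small p favours such a separation. Of the pericyte list, the aminopeptidase Anpep had −0.78 and vitronectin (Vtn) −0.55. Anpep read 14.19 to 15.53, well above the pericyte markers Rgs5, Pdgfrb and Cspg4, with means of 7.58, 6.25 and 4.03. Which cells gave its signal was not tested. Of endothelial genes, the lymphatic transcription factor Prox1 had 0.84, or 0.55 without Myd88+/+ replicate 1, and endoglin (Eng) had −0.87, or −0.34 without Myd88-/- replicate 3. The neuropeptide Vip, at 0.93, and the myelin gene Pmp22, at −0.65, stood for nerve, and the muscle creatine kinase Ckm, at −0.65, and the calcium pump Atp2a1, at 0.68, for skeletal muscle. Vip read under the background control median in all 6 glands, so its difference lies among values near the floor. Prox1 read under it in 4 glands, and Atp2a1 and Itgam in 3 each. The duct transcription factor Ascl3 had −0.96 and Gstt1 −0.61. The secreted salivary protein Bpifa2 had −2.66 (SE 0.80) with overlapping groups, and Smr3a had 0.30, or 0.10 without Myd88-/- replicate 2.

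The genes whose profile over the 6 glands was most like the average of the 9 were named by the smallest root mean square difference from it, among 11385 other genes with a mean above background. They were Mfge8, a secreted protein that bridges dying cells and phagocytes, at 0.05 log2 units, the gene 1810055G02Rik and the phospholipase Plaat3 at 0.07 and 0.08, and Cnn2 and the actin regulator Cyrib at 0.08. Mfge8 read 7.37, 7.74 and 7.37 in Myd88-/- glands and 7.60, 7.58 and 8.30 in Myd88+/+ glands. It shares with the contractile genes the high Myd88-/- replicate 2 and the high Myd88+/+ replicate 3. With 6 arrays and so many candidates, a close profile is a description of these glands.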

How the data were processed

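RNA of 6 submandibular glands was measured on Clariom S arrays, 1 a mouse. The authors deposited log2 RMA values made with the Transcriptome Analysis Console, as the submitters' processing notes and the labels state. Values ran from 2.26 to 19.93, from which the log2 scale was inferred. The sources used here give no software version, RMA variant or genome build, and no scan batches are labelled.

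Of 28846 probe sets, 6640 controls were left out, and 19572 of the 22206 tested had 1 gene symbol. Groups came from sample titles. limma 3.58.1 in R 4.3.3 (lmFit, eBayes, no covariates) was fitted to all tested probe sets for the difference Myd88-/- minus Myd88+/+. P-values were adjusted over all of them (Benjamini-Hochberg) and called under 0.05. The fit was tested on simulated data. Single genes were also compared by a two-sided exact permutation test. The number of arrays limits precision.

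The genes and lists were chosen with earlier results of these data known. Named are the 9 genes, Myd88, the genes of each list with the smallest p (up to 4, or 2 for other cell types), cell type markers, relatives of the 9 and the 5 closest profiles. Outside these rules, Cald1, Tpm1, Tpm2, Tpm4, Srf and Myocd were added with their values known. Alternatives were other normalizations, filters on dim probe sets, variance models, array weights, averaged probe sets, a replicate block and leaving out each mouse.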

Additional observations from a re-analysis of the deposited data

How the results depend on the processing

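Of 140 differences of the 9 genes under alternatives, 138 kept their direction and stayed above the adjusted p threshold of 0.05. The other 2 changed direction without Myd88+/+ replicate 3, Actg2 to 0.13 and Tagln to 0.055, where their ranges over leaving out each mouse were −0.87 to 0.13 and −0.59 to 0.055. The smallest adjusted p of any of the 9 genes under any alternative was 0.196 (limma), so 0 were called in all of them. Their median difference ran from −0.59 to −0.25. The count lower at an unadjusted p under 0.05, 3 as reported, was 1 without variance moderation and 0 to 3 when 1 mouse was left out. The count without overlap, 1 as reported, was 1 to 6 when 1 mouse was left out, while the share of all probe sets without overlap in either direction was 23.3% to 32%, against 15.1% with all mice. The 6 and the 32% came without Myd88-/- replicate 2. Over all tested probe sets, limma called 4 with an intensity trend and robust variances, 2 with median centring and 0 to 5 when 1 mouse was left out, against 0 as reported. The cause of these shifts was not tested. Actg2 fell out with the dimmest 30% of probe sets, and Oxtr and Cdh3 too with the dimmest 50%. List medians moved by more than the spread between replicates in 16 of 208 cases. With the replicate number as a block, 8 of the 9 genes were lower, 0 were called and 2 were lower at an unadjusted p under 0.05. Same-numbered glands did not deviate together (r = −0.11, −0.15 and −0.02 across probe sets), and the numbers were treated as names of the mice. Myd88-/- replicate 2 and Myd88+/+ replicate 1 gave r = 0.20. Whether any glands shared a batch was not tested. Signal near background limits what Actg2, Oxtr and Cdh3 can show.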
